A study of Mus musculus with 3 samples.

Results

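The 10 genes described here are those of the MHC class II pathway in the mouse, taken by symbol from the gene list of the 3 libraries, which holds 27998 genes. They are the classical chains H2-Aa, H2-Ab1 and H2-Eb1, the peptide editor genes H2-DMa, H2-DMb1 and H2-DMb2, the genes H2-Oa and H2-Ob of its inhibitor, the invariant chain Cd74, and the class II transactivator Ciita. All 10 were found once each in every library. They were chosen by name and not by their values here.

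The cells were CD11c+ phagocytes of Peyer's patches, the lymphoid follicles of the small intestine, from female C57BL/6Rj mice. In the CpG library the dose was 125 µg of CpG, which is a DNA ligand of TLR9, and in the R848 library it was 10 µg of R848, a small-molecule ligand of TLR7. Either agonist was injected into the peritoneum in 100 µL of PBS, 9 h before collection. The Control mice were untreated, with no mock injection. Each group was 12 mice pooled into 1 library of 3' single-cell RNA (10x Genomics Chromium), from 85 patches for CpG, 90 for R848 and 88 for Control. There is therefore no replicate, no test was possible, and every interval below is a 95% interval of counting error only, which says nothing of the spread between mice. The stains used for the sort included MHCII, the protein product of the genes described, as well as XCR1, SIRPa, CD4, CD11b, CD24 and Bst2. No source used here gives the gates, and their part in the levels below was not tested.

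In GENCODE M21 on GRCm38 (mm10), 8 of the 10 genes lie together on chromosome 17, all protein-coding. H2-Oa is at chr17:34092340-34095234, H2-DMa at chr17:34119541-34139101, H2-DMb2 at chr17:34143307-34151555 and H2-DMb1 at chr17:34153072-34160230. H2-Ob is at chr17:34238903-34254414, H2-Ab1 at chr17:34257689-34269419, H2-Aa at chr17:34282744-34287823 on the minus strand, and H2-Eb1 at chr17:34305867-34316674. Ciita is at chr16:10480059-10528418 and Cd74 at chr18:60803848-60812652. Apart from H2-Aa all are on the plus strand.

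MHC class II molecules are αβ pairs that carry peptides from endosomes to the cell surface, where CD4+ T cells read them. The invariant chain Cd74 holds the new pair in the endoplasmic reticulum, fills its groove and steers it to endosomes. There H2-DM, a pair of H2-DMa with a β chain from H2-DMb1 or H2-DMb2, exchanges the last fragment of Cd74 for peptide, and H2-O, the pair of H2-Oa and H2-Ob, holds H2-DM back. Ciita binds no DNA itself but is recruited by factors on the X and Y boxes of class II promoters and drives their transcription. Dendritic cells are known to load and display class II on maturation while they shut off its new synthesis.

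RefSeq promoter windows (GRCm38.p6, 250 bases before to 50 after the annotated start) were matched for 7 of the 10 genes. The windows below run from base -150 to base -31 before the start, 5′ to 3′ on each gene's own strand. They are shown because H2-DMb1 and H2-DMb2 ordered the cell classes differently, the chains H2-Eb1 and H2-Aa were lower with the agonists in mature DCs, and H2-Oa and H2-Ob were lowest in lysozyme-high phagocytes. Capitals mark the letters AACNGATG, taken from the X box, and TGATTGG, which holds the CCAAT box of the Y box on the other strand, both searched on both strands and not overlapping here.
H2-DMb1: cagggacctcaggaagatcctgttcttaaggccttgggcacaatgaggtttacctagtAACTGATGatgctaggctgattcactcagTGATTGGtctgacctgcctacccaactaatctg
H2-DMb2: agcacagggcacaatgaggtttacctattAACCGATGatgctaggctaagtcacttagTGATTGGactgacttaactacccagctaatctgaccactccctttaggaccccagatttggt
H2-Eb1: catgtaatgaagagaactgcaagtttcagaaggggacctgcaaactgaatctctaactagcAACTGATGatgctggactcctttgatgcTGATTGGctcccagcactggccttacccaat
H2-Aa: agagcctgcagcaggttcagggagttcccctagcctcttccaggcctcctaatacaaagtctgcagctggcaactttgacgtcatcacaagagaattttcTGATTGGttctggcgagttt
H2-Oa: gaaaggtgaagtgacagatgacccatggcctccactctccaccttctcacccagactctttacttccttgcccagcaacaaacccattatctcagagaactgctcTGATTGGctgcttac
H2-Ob: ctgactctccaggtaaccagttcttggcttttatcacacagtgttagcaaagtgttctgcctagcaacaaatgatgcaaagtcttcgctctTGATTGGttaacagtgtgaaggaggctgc
Those windows lie at chr17:34153041-34153160 for H2-DMb1, chr17:34145099-34145218 for H2-DMb2, chr17:34305717-34305836 for H2-Eb1, chr17:34287854-34287973 on the minus strand for H2-Aa, chr17:34092229-34092348 for H2-Oa and chr17:34238755-34238874 for H2-Ob. The X letters were found in 3 of the 7 genes, H2-DMb1, H2-DMb2 and H2-Eb1, and in 2.32% of all 32851 promoter windows. The Y letters were found in 6 of the 7, all but H2-DMa, and in 7.82% of all windows. The H2-DMa windows, at chr17:34122582-34122881 and chr17:34125268-34125567, lie inside the span of the gene given above. The H2-DMb2 window likewise lies inside the span of its gene, and those of H2-DMb1 and H2-Oa run past the gene starts given above. Other starts of H2-DMa were not searched. The X and Y letters stood in the same window for the 3 genes with the X letters and in 61 windows in all (0.186%). The stretch between them was 21 bases in H2-DMb1 and H2-DMb2 and 20 in H2-Eb1. Set side by side at the X letters with no gap, the H2-DMb1 and H2-DMb2 promoters were identical at 86 of 100 bases. These letters are a description of the windows and not a measured binding site. Only exact matches were counted, so a window without the letters may still hold a variant of the box.

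After cell filters and doublet removal 4821 CpG, 4898 R848 and 5079 Control cells were kept, with 40816877, 43528839 and 40360895 UMIs (unique transcript molecules). The cell classes were rebuilt here by clustering each library without the 10 genes and naming the clusters from fixed marker genes, so each name stands for cells like that type. The 12 mature DC markers, such as Ccr7 and Fscn1, summed to 17171 to 19342 CPM (UMIs scaled to a total of 1000000 per class and library) in mature DCs, against 468 to 917 in resting cDC2. The 14 lysozyme-high markers summed to 91534 to 124599 CPM in lysozyme-high phagocytes, which hold the monocyte-derived LysoDC and the macrophages of the sort, against 10078 to 13991 in resting cDC2. Mature DCs numbered 2598 in CpG and 2185 in R848, against 130 in Control. Lysozyme-high phagocytes numbered 1195 and 1497, against 1804, and resting cDC2 numbered 354 and 463, against 1806. Resting cDC1 were found as a cluster in Control alone, with 372 cells. Partly mature clusters of 241, 283 and 378 cells and unnamed clusters of 212, 130 and 176 cells were left out of the classes. So were proliferating clusters of 194, 281 and 334 cells, a CpG monocyte cluster (27 cells), an R848 plasma cell cluster (27 cells) and the B cell clusters. Between libraries, 110 barcodes stood in 2 of them. RNA free in the suspension, estimated from C1qa, C1qb and C1qc in mature DCs, was 2.58% of UMIs in CpG and 2.50% in R848, against 4.58% in Control. Of the B cell markers, 8 were found, which summed to 134 to 207 CPM in lysozyme-high phagocytes and 16.4 to 71.2 CPM in the DC classes. In lysozyme-high phagocytes of each library 1 of the 8 was at 20 CPM or more, and the median was 0.38 to 0.44 CPM. It was none of Cd79a, Ms4a1 and Pax5, which define B cells and were each at most 2.56 CPM there. In Control the sum there, 207 CPM, was above the 180 CPM of all kept cells. In a pooled library fewer cells of a kind and less RNA per cell within a class cannot be told apart where the mix inside a class differs.

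Together the 10 genes supplied several percent of the UMIs of every class. In mature DCs they made up 2.06% of UMIs in CpG and 3.69% in R848, against 6.16% in Control. In lysozyme-high phagocytes the values were 3.77% and 2.63%, against 4.58%, and in resting cDC2 7.71% and 6.79%, against 8.22%. Control resting cDC1 stood highest at 10.2%. The order of the agonists was thus not the same in the classes: CpG was the lower of the pair in mature DCs, and R848 in lysozyme-high phagocytes and resting cDC2. That order turned inside some subsets of both mature DCs and lysozyme-high phagocytes, as given with them below. Per cell, the median share in mature DCs was 1.31% in CpG and 2.71% in R848, against 5.28% in Control. Over all kept cells of a library the share was 3.43% in CpG and 3.47% in R848, against 6.33% in Control. There 7 of the 10 genes were at least 2-fold lower in CpG than in Control, where 2.12% of 4995 genes were (a gene was measured with at least 20 CPM in either group, and log2 ratios carry 5 CPM added to both), and 6 of the 10 were in R848, where 2.61% of 5022 were. Between the agonists 0 of 9 differed by 2-fold, where R848 had 1.15% of 4885 genes lower and 0.655% higher than CpG, so the difference between CpG and R848 was seen within classes and not in whole libraries. The mix of classes differs between libraries, as the cell numbers above show, so a whole library and its classes need not agree. The spread between cells was wide in mature DCs, with a 10th and 90th percentile of 0.342% and 5.10% in CpG, 0.618% and 7.31% in R848, and 0.872% and 11.2% in Control.

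**Figure D1:**
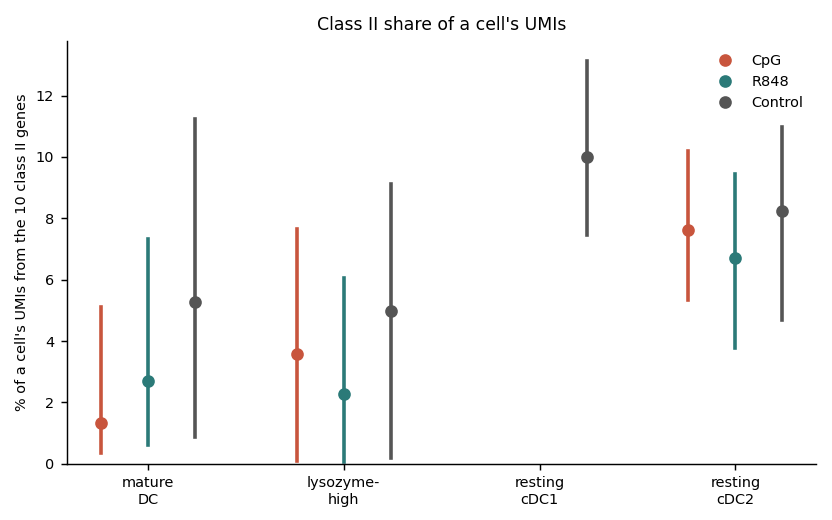
Share of each cell's UMIs that came from the 10 class II genes (y axis, %), by cell class (x axis) and library (colour). Points are medians over cells and lines run from the 10th to the 90th percentile; mature DCs lie at 1.31% in CpG and 2.71% in R848, against 5.28% in Control, while resting cDC2 stay between 6.72% and 8.24%.

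The classical chains were most abundant in resting cDC1 and resting cDC2 and lowest in CpG mature DCs. H2-Aa, the α chain of I-A, had 2629.7 CPM in CpG and 6174 CPM in R848 mature DCs, against 9909 CPM in Control. It had 6235 and 4094 CPM in CpG and R848 lysozyme-high phagocytes, against 8083 CPM in Control, and 11727 and 10757 CPM in resting cDC2, against 13002 CPM in Control. In Control resting cDC1 it had 15920.0 CPM (interval 15780 to 16061). Over the 10 class and library points H2-Aa ran from resting cDC1 through the 3 resting cDC2 points to Control mature DCs and Control lysozyme-high phagocytes, then to CpG lysozyme-high phagocytes and R848 mature DCs, R848 lysozyme-high phagocytes, and last CpG mature DCs. In that order only CpG lysozyme-high phagocytes (6196 to 6274 CPM) and R848 mature DCs (6131 to 6217 CPM) had intervals that overlapped.

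H2-Ab1, the β chain of I-A, had the same extremes and a larger distance between mature and resting cells. It had 1865 and 4064 CPM in CpG and R848 mature DCs, against 7774 CPM in Control mature DCs, and 16183 and 13672 CPM in resting cDC2, against 15936 CPM in Control. Mature DCs were 8.68-fold lower than resting cDC2 in CpG (8.55 to 8.80), 3.36-fold lower in R848 (3.32 to 3.41) and 2.05-fold lower in Control (1.995 to 2.11). For its partner H2-Aa the same ratios were 4.46-fold in CpG (4.40 to 4.52), 1.74-fold in R848 (1.72 to 1.76) and 1.31-fold in Control (1.28 to 1.34), so the intervals of the partners did not overlap in any library. H2-Eb1, the β chain of I-E, followed H2-Aa, with 4.66-, 1.73- and 1.34-fold in CpG, R848 and Control. The strain is known to lack a working I-E α gene, so H2-Eb1 RNA has no classical partner there.

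Cd74, the invariant chain, differed least between mature DCs and resting cDC2. It had 13706 and 20904 CPM in CpG and R848 mature DCs, against 35233 CPM in Control, which is 2.57-fold (2.54 to 2.60) and 1.69-fold lower. Mature DCs differed from resting cDC2 by 2.68-fold in CpG, by 1.501-fold in R848 and by 1.12-fold in Control, the smallest ratio of the 10 genes in each of the 3 libraries. Cd74 in lysozyme-high phagocytes was at 17756 and 13359 CPM in CpG and R848, against 20685 CPM in Control.

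**Figure D2:**
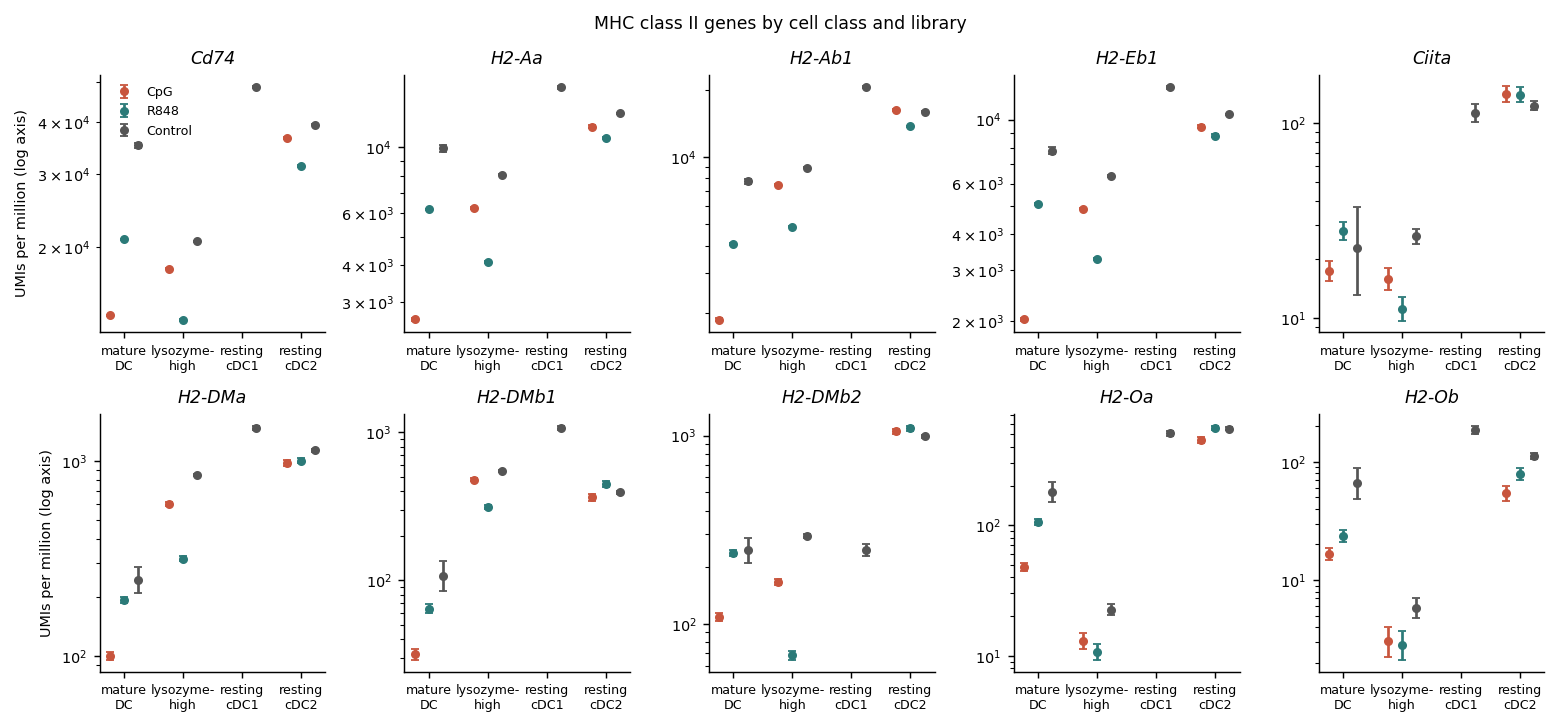
Level of each gene in CPM (y axis, log scale, a separate range in each panel) by cell class (x axis) and library (colour), with 95% Poisson intervals. The classical chains and Cd74 are lowest in CpG mature DCs or R848 lysozyme-high phagocytes, H2-Oa and H2-Ob are lowest in lysozyme-high phagocytes, and H2-DMb1 and H2-DMb2 order the classes differently.

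Against Control, CpG mature DCs had 9 of the 10 genes at least 2-fold lower, where 4.61% of the 4382 genes measured were. The median log2 ratio of the 10 genes was -1.66, and that of all genes measured 0.21. H2-Ab1 was lowest (log2 ratio -2.06, 4.17-fold, 4.05 to 4.29) and Ciita was the exception, at 17.5 CPM in CpG, against 22.9 CPM in Control. In R848 mature DCs 1 of the 10, H2-Ob, was at least 2-fold lower, where 3.39% of 4244 genes were, and the median was -0.69, against 0.10 for all genes. H2-Ab1 came next at -0.93 and H2-DMb2 had -0.05. These R848 values turned on the 2 Control mature clusters. Without the Glipr2-led Control cluster H2-Ob was at 0.47, H2-DMb2 at -1.50 and Ciita at -1.24. Without the Crispld2-led Control cluster H2-Ob was at -1.66, and H2-DMb2 and Ciita, at 1.49 and 1.88, were 2 genes at least 2-fold higher. In CpG H2-Ob was at 0.07 without the Glipr2-led Control cluster, and H2-DMb2 at 0.40 without the Crispld2-led one. Set directly against CpG, R848 mature DCs had 5 of the 10 genes at least 2-fold higher, where 1.06% of 4230 genes were: H2-Aa, H2-Ab1, H2-Eb1, H2-DMb2 and H2-Oa. That count was 0 to 8 with single clusters left out: 0 without the Ctrc-led R848 cluster, 1 without the Ehf-led CpG cluster and 8 without the Crispld2-led CpG cluster. The counts against Control rest on 130 Control mature DCs. With the partly mature clusters counted as mature DCs the count lower than in Control was 10 of 10 in CpG and 7 of 10 in R848, and with either of the 2 Control mature clusters left out it was 5 of 9 (without the Crispld2-led cluster) or 9 of 9 in CpG, and 1 of 10 or 7 of 10 (without the Glipr2-led cluster) in R848. In R848 it was also 2 without its own Crispld2-led cluster and 4 without its Ctrc-led cluster.

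In lysozyme-high phagocytes the agonists came in the other order. CpG had 0 of 9 measured genes at least 2-fold lower, where 0.492% of 4676 genes were, with a median log2 ratio of -0.38, against 0.05 for all genes. R848 had 2 of 9, H2-DMa and H2-DMb2, where 1.55% of 4854 genes were, with a median of -0.95, against 0.12 for all genes. The other 7 lay between -0.63 (Cd74) and -0.98 (H2-Aa), so all 9 were on the lower side and several were close to the 2-fold mark; 6 of 9 passed it under median-of-ratios scaling. With single clusters left out the R848 count ran from 1, without the Cd4-led R848 cluster, to 8, without the Tnnt1-led R848 cluster, and was 7 and 5 without the Control clusters led by C3 and by Zfp691. Set directly against CpG, R848 had H2-DMb2 at least 2-fold lower and 0 of the other 6 genes measured, where 0.398% of 4772 genes were. H2-Ob was not measured there, at 3.04 and 2.82 CPM in CpG and R848, against 5.82 CPM in Control.

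In resting cDC2 0 of the 10 genes differed by 2-fold with either agonist, where 1.58% of 4816 genes were at least 2-fold lower and 2.68% higher in CpG, and 0.78% of 4871 lower and 1.87% higher in R848. The medians were -0.13 in CpG and -0.20 in R848, against 0.10 and 0.17 for all genes. Within the Plet1-led clusters of resting cDC2, whose name is that of a leading gene, 0 of 10 were at least 2-fold lower in CpG (0.948% of 4747 genes) and in R848 (0.722% of 4711). CpG resting cDC2 were a Plet1-led cluster alone. A CpG cluster of 169 cells with Cdh17 among its leading genes was left unnamed. Gzma, Gzmb, Klrd1 and Nkg7 were also among those leading genes. Its marker score was highest for T cells (1.586), then NK cells (1.033), against 0.14 for resting cDC2. The unnamed CpG cells also include a cluster of 43 cells led by Mzb1 and Cd79a, which scored highest for plasma cells. All unnamed CpG cells together had 4.21% of UMIs from the 10 genes, against 7.71% in CpG resting cDC2. H2-Ob lay closest to the mark, at 54.0 and 79.0 CPM in CpG and R848, against 111 CPM in Control (log2 ratios -0.98 and -0.47). The CpG value passed the 2-fold mark with a pseudocount of 1 CPM, or under median-of-ratios scaling. The CpG and R848 libraries share the Control library in all of these ratios.

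**Figure D3:**
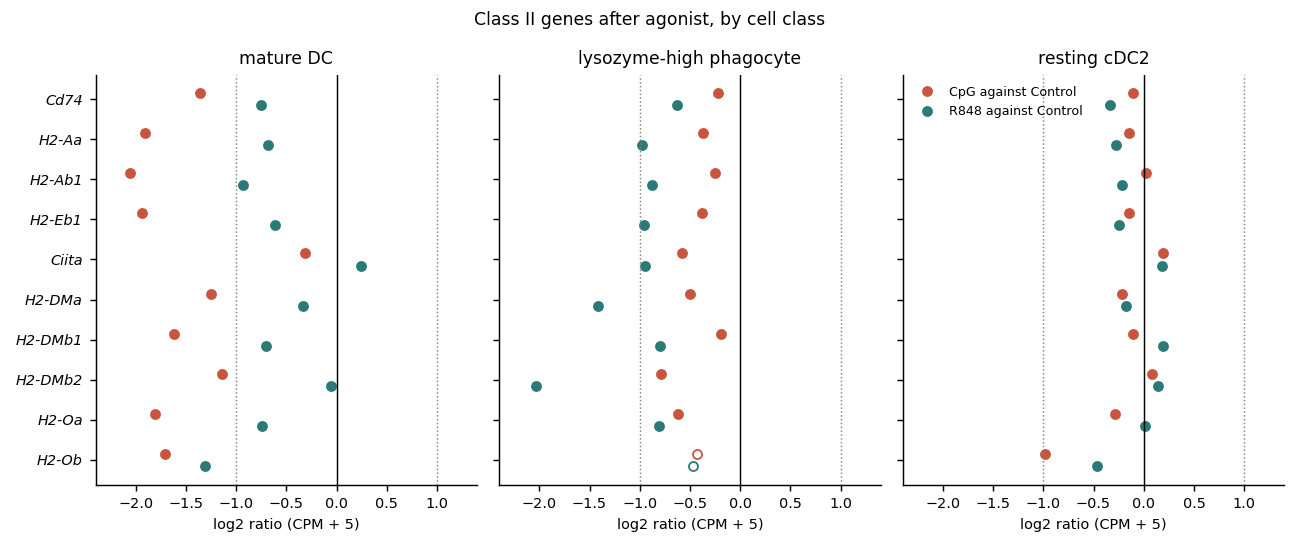
log2 ratio of each gene for CpG against Control and R848 against Control (x axis, 5 CPM added to both) in mature DCs, lysozyme-high phagocytes and resting cDC2. Dotted lines mark 2-fold, open points are genes under 20 CPM in both groups, and CpG lies left of R848 in mature DCs and right of it in lysozyme-high phagocytes.

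The H2-DM genes differed both between cell classes and between libraries. H2-DMa, the only α chain of the editor, had 100.0 and 193 CPM in CpG and R848 mature DCs, against 245.0 CPM in Control. In resting cDC2 it had 975 and 1008 CPM, against 1136 CPM in Control, so that mature DCs were 9.75-, 5.21- and 4.64-fold lower in CpG, R848 and Control. In lysozyme-high phagocytes it had 601 and 316 CPM, against 849.9 CPM in Control. H2-DMa was thus lower in mature DCs than in resting cDC2 in all 3 libraries, and in lysozyme-high phagocytes it was 2.69-fold lower in R848 than in Control (2.61 to 2.77).

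The β chain genes of the editor, H2-DMb1 and H2-DMb2, were used in different proportion by different cells. In Control resting cDC1 H2-DMb1 had 1076 CPM, against 394 CPM in resting cDC2 (log2 ratio 1.44), while H2-DMb2 had 247 CPM in resting cDC1, against 994 CPM in resting cDC2 (-1.99). H2-DMb1 was the only 1 of the 10 genes at least 2-fold higher in resting cDC1, where 4.73% of 4717 genes were, and H2-DMb2 the only 1 at least 2-fold lower, where 10.3% were. Of the UMIs of the pair, H2-DMb2 supplied 18.6% in resting cDC1 (exact binomial interval 17.5% to 19.9%), against 71.6% in Control resting cDC2 (70.9% to 72.3%). The share in resting cDC2 was 74.3% in CpG and 71.0% in R848. Mature DCs had 77.4% and 78.7% in CpG and R848, against 69.6% in Control (63.5% to 75.3%). Lysozyme-high phagocytes were on the side of resting cDC1, with 25.9% and 17.8% in CpG and R848, against 34.9% in Control (34.1% to 35.6%). The B cell clusters, of 32 R848 and 79 Control cells, lay at the other end with 90.4% and 81.7%. Over each whole library the share was 49.8% in CpG and 48.1% in R848, against 51.5% in Control, the profile from which the free RNA estimate is made.

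In lysozyme-high phagocytes the agonist libraries were lower in both genes of the pair, but not alike. H2-DMb2 had 168 and 67.9 CPM in CpG and R848, against 294 CPM in Control, which is 1.75-fold (1.67 to 1.84) and 4.32-fold lower (4.07 to 4.60). H2-DMb1 had 481 and 314 CPM, against 548 CPM in Control, which is 1.14-fold (1.11 to 1.18) and 1.75-fold lower (1.69 to 1.80). The intervals of the genes did not overlap for either agonist.

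Within resting cDC2 the share also differed between clusters. The cluster led by Cd209a, a lectin gene of a subset of cDC2, had an H2-DMb2 share of 47.8% in R848 (87 cells) and 47.5% in Control (204 cells). The clusters led by Cdh17 had 79.4% in R848 (204 cells) and 81.4% in Control (248 cells), and those led by Plet1 had 74.3% in CpG, 70.8% in R848 and 70.1% in Control. In CpG the cluster with Cdh17 among its leading genes (169 cells), which scored highest for T cells, was left unnamed. Its share was 85.9%. In the Cd209a-led cluster H2-DMb1 was at 701.5 CPM in R848 and 730.3 CPM in Control, and in the Cdh17-led cluster at 324 and 229.9 CPM. The Cdh17-led cluster also held less of the classical chains, with H2-Aa at 8323 CPM in R848 and 7743 CPM in Control, where the Plet1-led clusters had 12035 CPM in R848 and 14747 CPM in Control. These subsets, and those below, were chosen after values had been seen, and clusters carry the leading genes that made them.

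**Figure D4:**
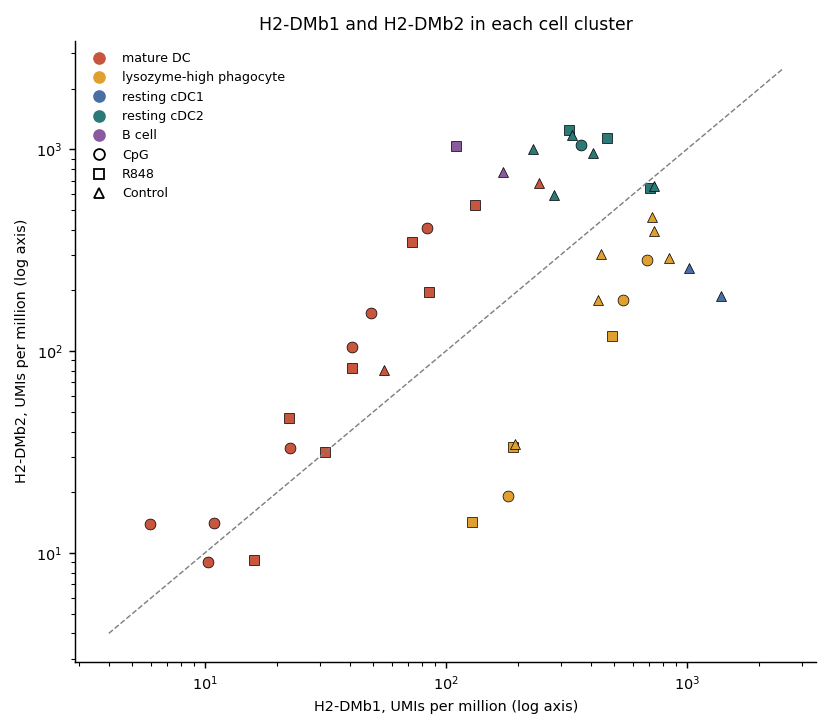
H2-DMb2 against H2-DMb1 in CPM (both axes log) for each cluster of the named classes, with colour for class and shape for library. Points above the dashed line of equal UMIs are the B cell clusters, most mature DC clusters and the resting cDC2 clusters other than the Cd209a-led ones, which lie just below it at shares of 47.8% in R848 and 47.5% in Control; resting cDC1 and lysozyme-high clusters lie below it.

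The genes are close copies, and their 3' ends were compared because 3' reads are what the assay counts. The longest protein-coding transcripts of H2-DMb1 and H2-DMb2 matched at 94.7% of 1219 aligned bases. In the last 400 bases 27 of 351 windows of 50 bases from H2-DMb1 occurred unchanged in a coding transcript of H2-DMb2, and 0 of 351 the other way round. No source used here says how the counting treated reads that match both genes.

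The genes of H2-O had the largest ratios between lysozyme-high phagocytes and resting cDC2. H2-Oa had 12.99 and 10.7 CPM in CpG and R848 lysozyme-high phagocytes, against 22.5 CPM in Control, where the free RNA estimate alone is 2.27, 2.24 and 11.5 CPM. In resting cDC2 it had 449.8 and 556 CPM in CpG and R848, against 550.1 CPM in Control, and Control resting cDC1 had 506 CPM. Lysozyme-high phagocytes were thus 34.6-fold lower than resting cDC2 in CpG (29.9 to 40.3), 51.9-fold in R848 and 24.4-fold in Control, the largest ratio of the 10 genes in that contrast. H2-Ob followed, at 17.7-, 28.0- and 19.1-fold lower. The classical chains in the same contrast were 1.61- to 1.78-fold lower in Control, so class II RNA was present in the class with little H2-O RNA. In Control 4 of the 10 genes were at least 2-fold lower in lysozyme-high phagocytes, where 10.2% of 5064 genes were: H2-Oa, H2-Ob, Ciita and H2-DMb2. In R848 it was 9 of 10, where 12.7% of 5426 genes were, and in CpG 6 of 10, where 10.8% of 5236 were. With single lysozyme-high clusters left out the counts were 4 to 6 in Control, the higher without the cluster led by Tsku or by Itgam, 5 in R848 without its Cd4-led cluster, and 4 and 9 in CpG without its Cd4-led and its Tnnt1-led cluster.

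H2-Ob, whose product pairs with H2-Oa, did not keep a fixed ratio to it. Control resting cDC1 had 186 CPM of H2-Ob (171 to 202), against 111 CPM in resting cDC2 (105 to 117), although H2-Oa was lower there. The B cell clusters had 206 CPM in R848 and 294 CPM in Control, with intervals of 150.5 to 276 and 247 to 347, and H2-Oa at 197 and 247 CPM there. The interval of the R848 B cells overlaps that of resting cDC1. In mature DCs H2-Ob had 16.6 and 23.5 CPM in CpG and R848, against 65.9 CPM in Control (48.2 to 87.9).

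Ciita RNA was sparse, and its averages over whole classes fell into a pair of levels. The lower level is an average of unlike clusters, as the subsets of mature DCs below show. In Control the clusters of lysozyme-high phagocytes ran from 3.02 to 50.1 CPM. Resting cDC2 had 140.2 and 139 CPM in CpG and R848, against 122 CPM in Control, and Control resting cDC1 had 113 CPM (101 to 125), whose interval overlaps that of Control resting cDC2 (116 to 128). Mature DCs had 17.5 and 27.9 CPM in CpG and R848, against 22.9 CPM in Control (13.1 to 37.2), and lysozyme-high phagocytes had 15.9 and 11.2 CPM, against 26.2 CPM in Control. Mature DCs were 8.03-fold lower than resting cDC2 in CpG (6.90 to 9.36), 4.98-fold in R848 (4.34 to 5.71) and 5.32-fold in Control (3.27 to 9.34). The interval of Control mature DCs thus took in the Control lysozyme-high level, while H2-Aa was at 9909 CPM in Control mature DCs and 8083 CPM in Control lysozyme-high phagocytes. Against resting cDC2, mature DCs had 10 of the 10 genes at least 2-fold lower in CpG, where 20.8% of 5161 genes were, 7 of 10 in R848, where 28.3% of 5228 were, and 6 of 10 in Control, where 23.8% of 4958 were (2 without the Glipr2-led Control cluster). The medians were -2.90, -1.94 and -1.31, against -0.22, -0.41 and -0.36 for all genes. Against Control resting cDC1, Control mature DCs had 6 of 10 at least 2-fold lower, where 15.8% of 4628 genes were, with H2-DMb1 at 10.0-fold (7.97 to 12.8) and H2-DMb2 level, at 246.4 CPM against 246.7 CPM (ratio interval 0.847 to 1.19).

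Mature DCs were not uniform. In each library 1 cluster had Crispld2 among its 10 leading genes (called Crispld2-led), and its cells carried no more than 0.984 CPM of Xcr1, the cDC1 receptor gene. Other clusters had Glipr2 among theirs (Glipr2-led) and carried Xcr1 at 6.37 CPM in CpG and 63.7 CPM in R848, against 35.6 CPM in Control. The Crispld2-led cells had Ciita at 69.5 CPM in CpG and 50.7 CPM in R848, against 72.9 CPM in Control (39.8 to 122 in the 53 Control cells). The Glipr2-led cells had 1.27 and 2.60 CPM, against 3.95 CPM in Control, where free RNA alone gives 0.884, 0.812 and 3.12 CPM. H2-DMb2 was split in the same way, at 408 and 347 CPM, against 682 CPM in Control, in Crispld2-led cells, and at 10.6 and 52.6 CPM, against 81.1 CPM in Control, in Glipr2-led cells. The distance from Control was unequal too. In Crispld2-led cells 2 of 10 genes were at least 2-fold lower in CpG, where 11.1% of 5028 genes were, and 3 of 10 in R848, where 9.39% of 5016 were. In Glipr2-led cells it was 9 of 9 in CpG, where 8.49% of 4017 genes were, and 4 of 9 in R848, where 6.47% of 3942 were. The agonists thus came in opposite order in these subsets. The Glipr2-led cells share that leading gene but differ in Xcr1 between libraries, so they are not matched cells. In R848 the Glipr2-led cluster that also had Xcr1 among its leading genes (335 cells) held 246 of the subset's 304 H2-DMb2 UMIs. The median log2 ratio in Crispld2-led cells was -0.74 in CpG and -0.94 in R848. Cd74 there had 23553 and 18470 CPM, against 32575 CPM in Control. Control mature DCs lay wholly in these subsets, but many CpG and R848 mature DCs lay in neither. Among those was the Ctrc-led R848 cluster of 432 cells, the highest R848 mature cluster for H2-Ab1, at 9073 CPM. The order with such clusters counted in a subset was not tested.

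Among the chains H2-Ab1 shows the split. Crispld2-led cells had 5959 and 4523 CPM of H2-Ab1 in CpG and R848, against 8811 CPM in Control, which is 1.48-fold (1.41 to 1.55) and 1.95-fold lower (1.85 to 2.05). Glipr2-led cells had 550.0 and 1753 CPM, against 7380.1 CPM in Control, which is 13.4-fold (12.8 to 14.1) and 4.21-fold lower (4.05 to 4.37). H2-Aa in Glipr2-led cells was 6.35-fold lower in CpG and 2.08-fold in R848, and Cd74 2.80-fold and 1.82-fold. Crispld2-led cells were 20.9% of CpG and 32.7% of R848 mature DCs, against 40.8% of Control, and Glipr2-led cells 29.2% and 41.0%, against 59.2%. The mix inside the class therefore differs between the libraries, and its part in the ratios of whole mature DCs was not tested beyond these values within subsets. The Control subsets held 53 and 77 cells.

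Lysozyme-high phagocytes were split by Cd4, whose protein was among the sort's stains. Clusters with at least 50 CPM of Cd4 were called Cd4-high and held 35.1% of the class in CpG and 53.0% in R848, against 46.0% in Control. The Cd4-low clusters together had 7.19 CPM of Cd4 in CpG and 5.14 CPM in R848, against 4.82 CPM in Control. In Cd4-low cells H2-Aa had 8735 CPM in CpG and 6628 CPM in R848, against 11696 CPM in Control. Cd4-low R848 cells had 2 of 8 measured genes at least 2-fold lower, where 1.17% of 4691 genes were, again H2-DMa (2.25-fold, 2.18 to 2.33) and H2-DMb2 (3.60-fold, 3.37 to 3.85), and CpG had 0 of 8, where 0.478% of 4601 were. In Cd4-high cells H2-Aa had 1157 and 1584 CPM in CpG and R848, against 2946 CPM in Control. There 5 of 8 genes were at least 2-fold lower in CpG, where 1.21% of 4810 genes were, and 3 of 8 in R848, where 2.37% of 4970 were. CpG was thus the lower of the agonists for H2-Aa in Cd4-high cells and R848 in Cd4-low cells. H2-Oa, low in the whole class, had 16.9 and 13.9 CPM in Cd4-high cells of CpG and R848, against 32.4 CPM in Control, and 11.1 and 7.49 CPM in Cd4-low cells, against 15.6 CPM in Control, so it was higher in the Cd4-high cells of all 3 libraries. The Control Cd4-high value includes a Cxcl10-led cluster of 48 cells at 174.6 CPM, where the median lysozyme-high cluster had 23.4 CPM. All these values also hold free RNA, as estimated above.

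The Cd4-high counts turned on the Control clusters. Control held 3 such clusters, with H2-Aa at 7687, 5126 and 1026 CPM, and the lowest of them had Cd4 and Atp6v0d2 among its leading genes, as a cluster in CpG and in R848 had. In those Cd4- and Atp6v0d2-led clusters alone H2-Aa had 1157 CPM in CpG (419 cells) and 1373 CPM in R848 (672 cells), against 1026 CPM in Control (434 cells), and Cd74 had 3400 and 4864 CPM, against 2800.4 CPM in Control. H2-Aa and Cd74 were therefore not lower with either agonist in these best matched cells. The free RNA estimate for Cd74 was 465 and 457 CPM, against 1367 CPM in Control. H2-DMa had 314 and 129.9 CPM there, against 347 CPM in Control. H2-DMb2 had 19.2 and 14.2 CPM, against 34.8 CPM in Control, but the free RNA estimate was 6.73 and 5.62 CPM, against 24.9 CPM in Control, so no direction is read from H2-DMb2 in these cells.

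**Figure D5:**
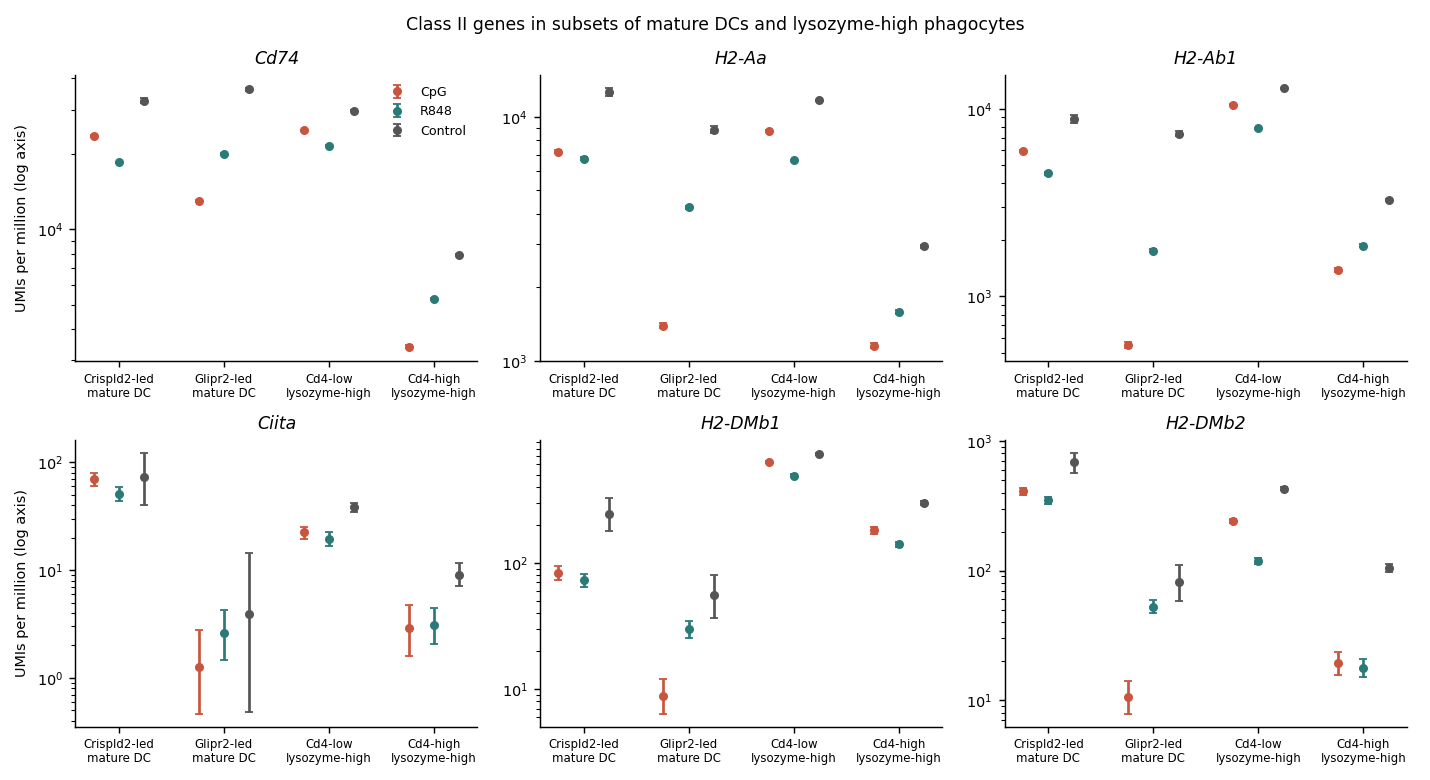
Levels of 6 of the genes in CPM (y axis, log scale) in subsets of mature DCs and of lysozyme-high phagocytes, by library (colour), with 95% Poisson intervals. Ciita and H2-DMb2 separate Crispld2-led from Glipr2-led mature DCs in all 3 libraries, and each of these 6 genes is lower in Cd4-high than in Cd4-low lysozyme-high cells, which H2-Oa, not drawn, is not.

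Within a class the chains varied together from cell to cell more than the editor genes did. Spearman's rho between H2-Aa and Cd74 over the cells of a class and library ran from 0.69 to 0.93 in the 10 points, each over 130 to 2598 cells. For H2-DMb1 and H2-DMb2 it ran from -0.10 to 0.50, and for H2-Oa and H2-Ob from 0.01 to 0.17. Cells of a point share a library and differ in depth, and the last pairs are sparse, so these are descriptions only.

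H2-Eb2, a class II β gene of the same region with no settled role, was not among the 10. It had 27.7 and 97.5 CPM in CpG and R848 mature DCs, against 100.3 CPM in Control, and 34.4 and 32.9 CPM in resting cDC2, against 30.6 CPM in Control. In mature DCs it was thus at least 2-fold above resting cDC2 in R848 and in Control, where none of the 10 genes was, and in CpG it was not above (log2 ratio -0.27). Its levels in Crispld2-led cells were 115 and 173 CPM in CpG and R848, against 198 CPM in Control, and in Glipr2-led cells 0.849 and 11.8 CPM, against 63.3 CPM in Control.

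Genes that bind class II promoters or act as coactivators, 12 in the list, were mostly too low to measure. Of those measured 0 were at least 2-fold lower in mature DCs than in resting cDC2 in CpG (6 measured), R848 (7) and Control (6), where 20.8%, 28.3% and 23.8% of all genes were, so that few calls could be made among so few genes. Creb1 was at 48.7 CPM in CpG mature DCs, against 25.7 CPM in resting cDC2 (log2 ratio 0.81). Of 15 genes reported to control Ciita, 12 were measured in the same contrast. Irf1, an activator of a Ciita promoter, was higher at 390.1 and 399 CPM in CpG and R848 mature DCs and 347 CPM in Control mature DCs, against 57.4, 68.2 and 47.7 CPM in resting cDC2. Irf8 was higher as well, with log2 ratios of 2.82, 3.42 and 3.27, and the interferon-γ receptor gene Ifngr1 was lower, with -3.82, -3.53 and -3.10. Mature DCs include cells with Xcr1, while the reference is resting cDC2 alone, so this contrast mixes lineage with maturation. In all, 3 of these 12 were at least 2-fold lower and 2 higher in CpG, 2 and 3 in R848, and 3 and 2 in Control. These counts are near the share of all genes, of which 20.8%, 28.3% and 23.8% were lower and 13.9%, 12.5% and 11.6% higher in CpG, R848 and Control.

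Among 8 genes of class II ubiquitination and its membrane partners, the ligase gene and its antagonist stood apart. March1, which marks class II for turnover, had 1.85 and 1.25 CPM in CpG and R848 mature DCs and 4.30 CPM in Control mature DCs, against 85.9, 102 and 72.6 CPM in resting cDC2. Cd83, which opposes March1, had 511, 851 and 998.6 CPM in mature DCs of CpG, R848 and Control, against 46.5, 66.3 and 83.8 CPM in resting cDC2. The tetraspanin gene Cd81 was higher in mature DCs, with log2 ratios of 5.19, 5.15 and 4.86. Of 6 measured, 3 were at least 2-fold lower and 3 higher in CpG (20.8% and 13.9% of all genes), 2 and 3 in R848 (28.3% and 12.5%), and 2 and 3 in Control (23.8% and 11.6%). In lysozyme-high phagocytes Cd81 had 218 and 112 CPM in CpG and R848, against 421 CPM in Control (log2 ratios -0.93 and -1.86).

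The list of endosomal proteases, their inhibitor and reductase held 12 genes. Lgmn, an endopeptidase of the invariant chain pathway, had 579 and 491 CPM in CpG and R848 mature DCs, against 241 CPM in Control, and was far above resting cDC2, at 15.5 and 33.2 CPM in CpG and R848 and 44.0 CPM in Control. Ctss, the protease of the last step of invariant chain cutting in DCs, was lower in mature DCs, with log2 ratios to resting cDC2 of -1.42 in CpG, -1.04 in R848 and -0.85 in Control. Cst3, the cathepsin inhibitor, was higher, with 1.37, 2.01 and 2.62. Of the genes measured, 2 of 11 were at least 2-fold lower and 2 higher in CpG, 1 and 2 of 10 in R848, and 0 and 2 of 11 in Control, which is no more than the share of all genes lower in that contrast (20.8%, 28.3% and 23.8%) and near the share higher (13.9%, 12.5% and 11.6%). Control lysozyme-high phagocytes had Ctsd at 1673 CPM and Ctsl at 463 CPM, against 82.2 and 35.6 CPM in Control resting cDC2, and 6 of 11 genes of the list were at least 2-fold higher, where 11.5% of 5064 genes were. In resting cDC1 4 of 11 were at least 2-fold lower than in resting cDC2, where 10.3% of all genes were, and Cst3 was higher (log2 ratio 3.07), where 4.73% were.

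Most of the 10 MHC class I genes in the list were at least 2-fold higher in mature DCs than in resting cDC2. Of 10 measured, 6 were at least 2-fold higher in mature DCs than in resting cDC2 in CpG, where 13.9% of 5161 genes were, 8 in R848, where 12.5% of 5228 were, and 8 in Control, where 11.6% of 4958 were, and 0 were lower. H2-K1, a class I heavy chain, had 3206 CPM in CpG mature DCs and 2492 CPM in Control mature DCs, against 1048 and 827 CPM in resting cDC2 of the same libraries. Nlrc5, the class I counterpart of Ciita, had 33.9 and 42.4 CPM in CpG and R848 mature DCs and 40.1 CPM in Control, against 7.44, 9.44 and 3.70 CPM in resting cDC2. With the agonists 0 of 10 class I genes differed by 2-fold from Control in mature DCs, where 4.61% of all genes were lower and 9.95% higher in CpG, and 3.39% lower and 5.44% higher in R848. Their median log2 ratio was 0.49 with either agonist.

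Over the same 10 class and library points, 5 genes outside the group tracked the mean log2 level of H2-Aa, H2-Ab1 and H2-Eb1 best among 5897 genes. They were Tm2d2 (Pearson's r 0.93), Wdfy4 (0.92), Khk (0.90), Adgre5 (0.90) and Prss30 (0.89). Cd74 stood at 0.92 and H2-DMa at 0.89 on the same scale. The points share libraries and Control cells, and Wdfy4, known for cross-presentation by cDC1, was itself a marker used to name resting cDC1. Wdfy4 had 5.74 and 11.3 CPM in CpG and R848 mature DCs, against 38.7 CPM in Control, and 109 and 125 CPM in resting cDC2, against 132 CPM in Control.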

How the data were processed

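Peyer's patch phagocytes were measured as 3 single-cell libraries, CpG, R848 and Control, each a pool of 12 mice. Per the submitters' processing notes the authors used Cell Ranger 2.0.0 and the mm10 build. What they deposited is an unnormalised matrix of UMI counts (genes by cells) for each library. No source used here names the annotation release. The libraries held 43767864, 46556726 and 43537067 UMIs over 5049, 5133 and 5344 barcodes.

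Cells with at least 500 genes and at most 10% mitochondrial UMIs were kept, and doublets (2 simulated per cell, 50 neighbours) were taken out, 202, 209 and 225 cells (0.8% for every 1000 cells). Clustering of each library left out the 10 genes (2000 variable genes, 30 principal components, 15 neighbours, leidenalg 0.10.2 at resolution 1; scikit-learn 1.9.0, scipy 1.17.1). Clusters were named from 17 marker lists. Score limits, set after the scores were seen, were at least 0.5 for mature DC, between -1 and 0.5 for partly mature, 2 for a class outside the sort and 1 for proliferating. No name was given where the 10 leading genes of a cluster, by fold at 50 CPM or more, held more markers of another class; monocyte markers did not count against lysozyme-high clusters, nor cDC markers against mature DC, also set later.

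UMIs were summed per class and library and scaled to CPM. log2 ratios carry 5 CPM, and a gene was measured with 20 CPM in 1 group and called at 2-fold. Levels have exact Poisson intervals, ratios exact conditional binomial ones and shares Clopper-Pearson ones, at 95%. UMIs are molecules, and all intervals cover counting error only. No test was run, as a group is 1 library. The 2-fold rule and the ratio interval were tested on simulated UMI sums. The cell filter, doublet removal, clustering, naming and free RNA estimate were not tested in that way. The members, the 6 other gene lists, the markers and the alternatives were chosen with earlier results of these data known. All 10 members are named, at most 4 genes of any other list per comparison (those of the largest log2 ratio), and the 5 outside genes nearest to the classical chains. H2-Eb2 is the only gene of its list found, and where a list gene was named in one contrast its values in others are given too. Crispld2-, Glipr2-, Cd209a-, Cdh17- and Plet1-led clusters have that gene among their 10 leading genes. A cluster with both Cd209a and Plet1 among them was counted as Cd209a-led only. Alternatives changed the pseudocount, minimum, scaling, weighting, clustering, naming, doublets, free RNA and cell filter, 1 at a time.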

Additional observations from a re-analysis of the deposited data

Results flagged for a closer look

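Some genes went opposite ways in different classes with the same agonist, with counting intervals that left out 1 on both sides; with 1 library per group the difference was not tested. With CpG against Control, H2-Ab1 had a log2 ratio of 0.02 in resting cDC2, against -2.06 in mature DCs and -0.26 in lysozyme-high phagocytes. H2-DMb2 had 0.08 in resting cDC2, against -1.14 in mature DCs and -0.79 in lysozyme-high phagocytes. Ciita had 0.19 in resting cDC2, against -0.58 in lysozyme-high phagocytes. With R848 against Control, H2-DMb1 had 0.19 in resting cDC2, against -0.70 in mature DCs and -0.79 in lysozyme-high phagocytes. H2-DMb2 had 0.14 in resting cDC2, against -2.03 in lysozyme-high phagocytes, and Ciita 0.18, against -0.95. Resting cDC2 were 1 Plet1-led cluster in CpG and 3 clusters in R848, against 5 in Control. Within Plet1-led cells alone H2-Ab1 was at -0.17 in CpG, so it did not go opposite ways there. The other values in those cells were 0.14 for H2-DMb2 and 0.53 for Ciita in CpG, and 0.19 for H2-DMb1, 0.25 for H2-DMb2 and 0.25 for Ciita in R848. Apart from that Ciita value the resting cDC2 values are small, and the median of all genes there is 0.10 in CpG and 0.17 in R848.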

How the results depend on the processing

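No paired analysis was possible because each group is 1 library. Under 15 other settings and 2 more chosen after seeing the data, 60 of 61 member ratios that were called kept their direction, and 46 stayed on the same side of the 2-fold mark in all of them. Over all 138 member ratios, those near 0 included, 104 kept their direction and 96 their side. The exception was H2-DMb2 in CpG against Control mature DCs, at 0.48 with a Leiden resolution of 0.5; the cause was not tested. For CpG against Control mature DCs the count of 9 genes at least 2-fold lower was 5 with a resolution of 0.5, and 5 to 10 with single clusters left out (also chosen after seeing the data), the lowest without the Crispld2-led Control cluster. For R848 against Control mature DCs the count of 1 was 0 with a minimum of 100 CPM or a pseudocount of 20 CPM, 2 with a resolution of 2, with cells named one by one or with median-of-ratios scaling, 3 with cells weighted equally, 7 with partly mature clusters counted as mature DC, and up to 7 with single clusters left out (without the Glipr2-led Control cluster). For mature DCs against resting cDC2 in Control the count of 6 was 2 with partly mature clusters counted, and 2 without the Glipr2-led Control cluster. In lysozyme-high phagocytes R848 against Control gave 2 genes, but 4 with a pseudocount of 1 CPM, 6 with the members used in the clustering or with median-of-ratios scaling, and 1 to 8 with single clusters left out (1 without the Cd4-led R848 cluster, 8 without the Tnnt1-led R848 cluster, 7 without the Control cluster led by C3 and Cd4, 5 without the Control cluster led by Zfp691). CpG against Control there gave 0 genes, and up to 2 without the Tnnt1-led CpG cluster. For lysozyme-high phagocytes against resting cDC2 in Control the count of 4 was 9 without clusters led by a lineage marker. For resting cDC2, CpG against Control, the count of 0 was 1 with a pseudocount of 1 CPM, with median-of-ratios scaling, or without the Control cluster led by Mmp12 or the one led by Nccrp1. Median-of-ratios scaling takes away the median of all genes, which reached 0.21 in CpG mature DCs and -0.41 in R848 mature DCs against resting cDC2. With 130 cells and 697964 UMIs, Control mature DCs limit the precision of every ratio that includes them. A count of 0 there allows up to 4.30 CPM.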

Other observations

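The partly mature clusters, left out of the classes, were unlike one another, so their pooled values are not compared between libraries. The H2-DMb2 share of the H2-DMb pair was 46.7% in the CpG cluster of 194 cells and 47.2% in the one of 47 cells, which was led by Xcr1 and Clec12a. It was 30.4% in the R848 cluster of 242 cells and 88.3% in the one of 41 cells. The single Control cluster, of 378 cells led by Ccr7, had 75.5%.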
